A study of Mus musculus with 6 samples.

Results

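Transcript signals of 7 receptor genes were followed in miR-223 null and wild-type mouse neutrophils, through 9 probe sets among the 45037 non-control probe sets of the arrays. They are the Toll-like receptors Tlr2 and Tlr4 (3 probe sets), the co-receptor Cd14 (1 probe set) and the C-type lectin receptors Clec4d, Clec4e, Clec7a and Clec4n (5 probe sets). The members were chosen by probe set number from a list that pairs each number with its gene. No cut on their values was used, but earlier results of these data were known when they were chosen. The deposited table itself names no genes, so the gene names rest on that list.

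Bone-marrow neutrophils of miR-223 null mice (3 arrays) and of wild-type mice (3 arrays) were compared, to ask how transcript levels differ when this microRNA is missing. The labels name no treatment in either group, give no strain, age or sex and do not say whether the arrays of a group came from separate animals. The cells were taken from marrow with a Gr-1 antibody and magnetic columns, an antibody that also binds Ly6C on monocytes. Because no table at hand pairs the other probe sets with genes, neither the neutrophil markers nor those of monocytes and other marrow cells were checked, and the loss of miR-223 itself was not checked.

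Pattern recognition receptors let phagocytes sense microbes. TLR2 and TLR4 signal through adaptors such as MyD88 to NF-kappaB, and CD14 is a lipid-anchored surface protein that binds lipopolysaccharide and passes it to TLR4. Dectin-1 (Clec7a) recognises beta-glucans of fungi and carries its own tyrosine motif, whereas Dectin-2 (Clec4n), Mincle (Clec4e) and MCL (Clec4d) signal through the Fc receptor gamma chain, and all of these act through the kinase Syk and the adaptor Card9. miR-223 is an abundant microRNA of the myeloid lineage.

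The microRNA that the null animals lack is shown first, because it defines the comparison, with its seed, bases 2 to 8, in capitals. The sequence is RefSeq's, from chrX:96242884-96242905 on the plus strand of GRCm38.p6.
mmu-miR-223-3p: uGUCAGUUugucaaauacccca
Whether the transcripts of the receptors hold sites for this seed was not tested.

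Among the lectin receptor genes, Clec4n, Clec4d and Clec4e follow each other on chromosome 6 with 0 listed genes between them in RefSeq's table of GRCm38.p6, and Clec7a lies on the same chromosome with 229 listed genes between it and Clec4e. Promoter windows were searched for 4 of the 7 genes (Tlr2, Clec4d, Clec4e and Clec7a). Those of Cd14, Tlr4 and Clec4n were not searched. The promoters of 3 lectin receptors are printed because these probe sets were the lectin receptors that passed the threshold together in the fit with a technical block described further on. Each holds 250 bases before and 50 after the start, on the gene's strand, from RefSeq, GRCm38.p6. Capitals mark matches, on either strand, to the C/EBP core TTNNGNAA, a sequence bound by a family of myeloid transcription factors. The windows are chr6:123261857-123262156 on the plus strand for Clec4d, chr6:123289822-123290121 on the minus strand for Clec4e and chr6:129472736-129473035 on the minus strand for Clec7a.
Clec4d: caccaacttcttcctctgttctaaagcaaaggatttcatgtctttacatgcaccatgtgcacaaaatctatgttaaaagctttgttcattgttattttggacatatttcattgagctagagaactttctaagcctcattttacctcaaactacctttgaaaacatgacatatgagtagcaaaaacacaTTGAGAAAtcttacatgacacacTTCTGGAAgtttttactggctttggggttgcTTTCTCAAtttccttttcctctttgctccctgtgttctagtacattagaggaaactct
Clec4e: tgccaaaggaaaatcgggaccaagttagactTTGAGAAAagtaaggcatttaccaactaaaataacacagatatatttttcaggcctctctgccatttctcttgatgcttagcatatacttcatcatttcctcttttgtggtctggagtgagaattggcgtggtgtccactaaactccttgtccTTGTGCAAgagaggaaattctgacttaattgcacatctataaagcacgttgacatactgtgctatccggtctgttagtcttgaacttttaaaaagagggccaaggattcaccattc
Clec7a: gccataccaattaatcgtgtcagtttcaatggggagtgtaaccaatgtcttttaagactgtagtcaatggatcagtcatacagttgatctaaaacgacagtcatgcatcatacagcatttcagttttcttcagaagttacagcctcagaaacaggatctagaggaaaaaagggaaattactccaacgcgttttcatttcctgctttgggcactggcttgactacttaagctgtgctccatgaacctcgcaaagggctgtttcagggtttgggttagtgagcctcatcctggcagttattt
The Clec4d window held 3 matches, whose first letters lay 62, 39 and 8 bases upstream of the start. The Clec4e window held 2, at 219 and 66 bases upstream, and that of Tlr2, not printed, held 1 at 245 bases upstream. The Clec7a window held 0. For Clec7a 2 starts were listed, and only the window of the start nearest the annotated beginning of the gene was searched. Of all 32851 promoter windows of this length, 40.7% held at least 1 match, so the letters are common. The AP-1 motif TGANTCA (7.81% of all windows) and the PU.1 motif AGGAAGT (9.35%), searched on both strands, had 0 matches in these 4 windows. The motifs differ in their letters, and none of the marked matches overlapped another. A match is a description of letters and not evidence of binding.

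Signals of all 9 receptor probe sets were on average higher in null than in wild-type neutrophils (48.2% of all tested probe sets were), 8 of them by less than 1.5-fold, and the co-receptor Cd14 had the largest difference at 2.35-fold. None passed the threshold in the comparison of the 3 null with the 3 wild-type arrays (limma, adjusted p under 0.05 over 22519 tested probe sets), where 3.84% of all tested probe sets passed. At an unadjusted p under 0.05 (limma), 5 of the 9 were higher in null cells, against 9.96% of all tested probe sets in that direction and 18.7% in either. By the exact permutation test 0 did, since 3 arrays against 3 cannot give a p under 0.1. All 3 null values lay above all 3 wild-type values for 5 of the 9, against 12.8% of the tested probe sets. The median log2 change was 0.31 over the 9 and −0.0080 over all tested probe sets. More receptor-bearing cells and more receptor RNA per cell cannot be told apart in such bulk samples.

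**Figure D1:**
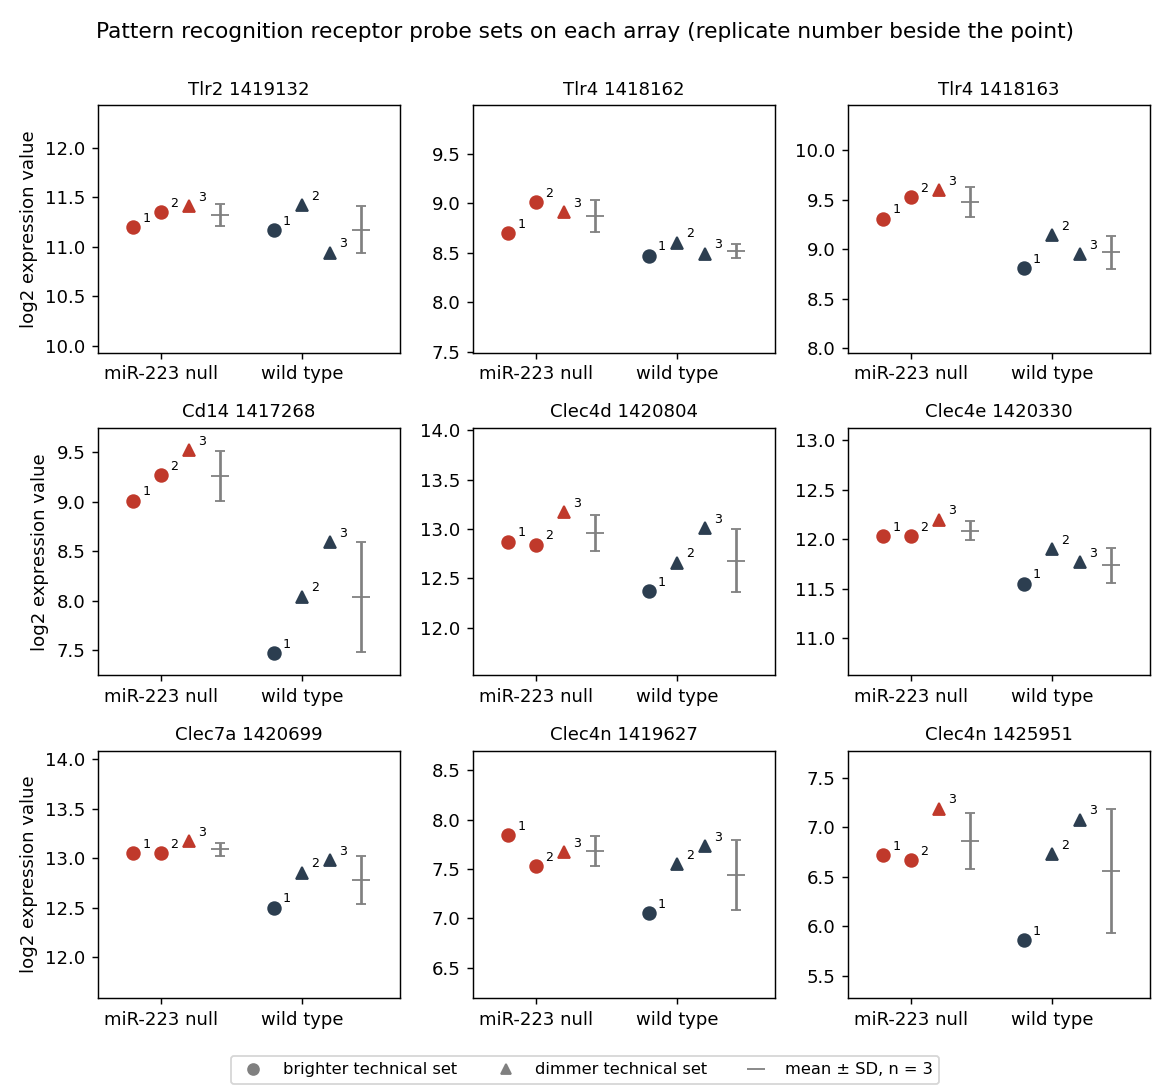
Deposited log2 expression value (vertical axes, each spanning the same range) of each receptor probe set on the miR-223 null and wild-type arrays; circles and triangles are the brighter and dimmer technical sets, digits are replicate numbers, and grey bars are mean ± SD (n = 3). Wild-type replicate 1 is the lowest of the 6 arrays in 8 of the 9 panels, all but Tlr2.

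The arrays also differed in the signal of added control sequences. They were parted at the widest gap in the mean of 18 hybridization control probe sets, bacterial and phage sequences added to the labelled sample. The brighter set, null replicates 1 and 2 and wild-type replicate 1, had means of 10.94 to 10.98, and the dimmer set, null replicate 3 and wild-type replicates 2 and 3, had 10.72 to 10.81. The sets were read from the data and no label names them. With null or wild type also in the fit, the receptors were lower in the brighter set for 9 of 9 probe sets. This effect of the set passed the threshold for 0 of them (limma, lowest adjusted p 0.0638). The matching shares over all tested probe sets were not computed, so neither count can be read as particular to the receptors. Each receptor is given without and with the set as a block. With the block, 5 of the 9 passed, all higher in null cells, where 5.57% of all tested probe sets passed in that direction and 11.0% in either. These 5 were Cd14, the Tlr4 probe set 1418163, Clec4d, Clec4e and Clec7a.

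Cd14 (1417268_AT), which delivers lipopolysaccharide to TLR4, had log2 values of 9.01, 9.27 and 9.52 in null cells, against 7.47, 8.04 and 8.59 in wild-type cells. The groups did not overlap, with a gap of 0.42 between the lowest null and the highest wild-type value, while the wild-type arrays were spread over more than 1 log2 unit. Means were 9.26 ± 0.25 for null and 8.03 ± 0.56 for wild type (SD, n = 3 each). The log2 change was 1.23 (SE 0.27, 95% interval 0.61 to 1.86), a fold of 2.35, and the limma adjusted p of 0.0517 missed the threshold narrowly. Of all tested probe sets, 0.298% had a larger rise. With the technical set as a block the change was 1.43 ± 0.18 (SE), or 2.70-fold, and passed (limma adjusted p = 0.00518).

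The Cd14 call turned on the settings. Cd14 did not pass with no filter (limma adjusted p = 0.0520), without the variance trend (0.0703), with robust shrinkage (0.0533) or with quantile normalization (0.0545). With the replicate number as a block it passed (limma adjusted p = 0.0161). It passed with each array centred on its median (limma adjusted p = 0.0498), with the stricter filter on low values (0.0426), with array weights (0.0437) and without wild-type replicate 3 (0.0311). Without any other single array it did not pass, at limma adjusted p up to 0.160, although fewer arrays also widen the error. The change itself lay between 0.95 and 1.51 over these omissions, lowest without wild-type replicate 1 and highest without wild-type replicate 3.

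Tlr4, the receptor for lipopolysaccharide, was measured by 2 probe sets. The brighter of them, 1418163_AT, had log2 values of 9.31, 9.53 and 9.60 in null cells, against 8.81, 9.14 and 8.95 in wild-type cells. All null arrays lay above all wild-type arrays. The log2 change was 0.51 (SE 0.12, 95% interval 0.23 to 0.79), or 1.42-fold, and it did not pass (limma adjusted p = 0.0632). With the technical set as a block the change was 0.58 ± 0.096 (SE) and passed (limma adjusted p = 0.0118). It also passed with the stricter filter on low values, at the same change (limma adjusted p = 0.0483).

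The other Tlr4 probe set, 1418162_AT, had log2 values of 8.70, 9.01 and 8.91 in null cells, against 8.47, 8.60 and 8.49 in wild-type cells. These groups did not overlap either, by a gap of 0.096. On the log2 scale it changed by 0.35 (SE 0.11, 95% interval 0.10 to 0.60), or 1.28-fold, and it passed neither without the block (limma adjusted p = 0.124) nor with it (0.0674). The change of 1418163 exceeded that of 1418162 by 0.16 log2 units (two-sided exact permutation p = 0.2). This test cannot give a p under 0.1 with 3 arrays against 3, so it could not resolve the difference.

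Tlr2 (1419132_AT), which with TLR1 or TLR6 senses bacterial lipoproteins, had log2 values of 11.20, 11.35 and 11.41 in null cells, against 11.17, 11.42 and 10.94 in wild-type cells. The groups overlapped, and wild-type replicate 2 was the highest of all 6 arrays. The log2 change was 0.14 (SE 0.12, 95% interval −0.14 to 0.43), which did not pass (limma adjusted p = 0.617). The interval reaches up to 1.35-fold higher in null cells, so a small rise cannot be told from none. Tlr2 was also the only member whose lowest array was not wild-type replicate 1. With the block its change was 0.17 ± 0.13 (SE; limma adjusted p = 0.469). With no block the change was 0.027 without wild-type replicate 3 and 0.26 without wild-type replicate 2.

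**Figure D2:**
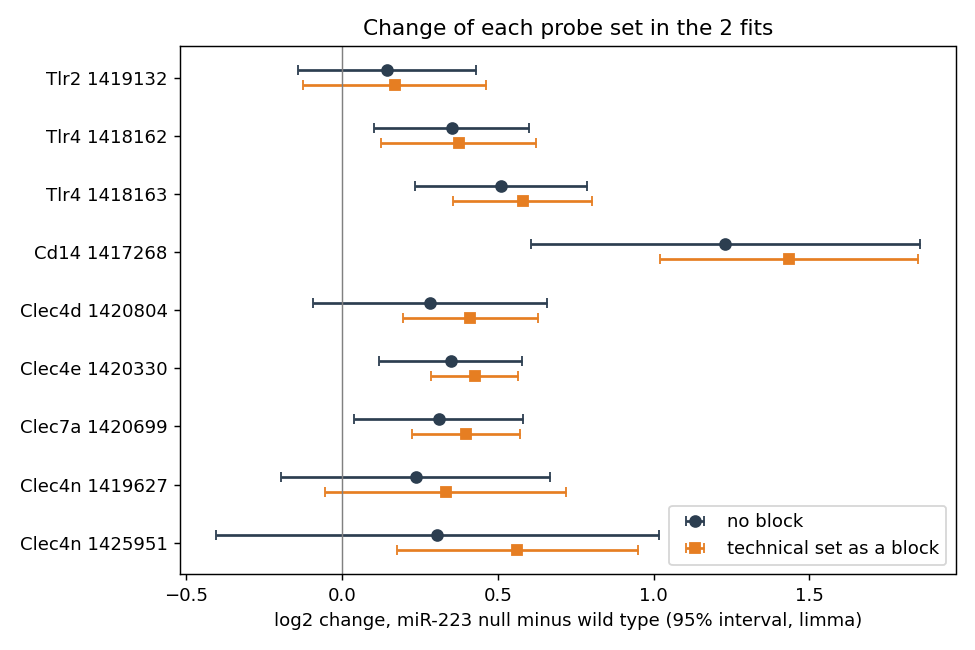
Log2 change, miR-223 null minus wild type (horizontal axis), of each receptor probe set with its 95% interval from limma, without a block (circles) and with the block (squares). All 18 points lie to the right of 0. The intervals of Tlr2 and Clec4n 1419627 include 0 in both fits, and those of Clec4d and Clec4n 1425951 include 0 without the block.

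The lectin receptors had smaller differences than Cd14 in these samples, with log2 changes between 0.24 and 0.35 over their 5 probe sets. In the fit without a block 0 of the 5 passed. Once the block was added 3 of the 5 passed, all higher in null cells, where 5.57% of all tested probe sets did. All null values lay above all wild-type values for 2 of the 5, Clec4e and Clec7a, against 12.8% of the tested probe sets.

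Clec4e (1420330_AT) encodes Mincle, which binds glycolipids of mycobacteria. Its log2 values were 12.03, 12.03 and 12.20 in null cells, against 11.55, 11.90 and 11.77 in wild-type cells. The groups did not overlap, and the null arrays were close together. Null cells exceeded wild-type cells by 0.35 log2 units (SE 0.099, 95% interval 0.12 to 0.58), or 1.27-fold, and did not pass (limma adjusted p = 0.104). With the block it was 0.43 ± 0.060 (SE) and passed (limma adjusted p = 0.00744).

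Clec7a (1420699_AT), which encodes Dectin-1, had log2 values of 13.05, 13.05 and 13.17 in null cells, against 12.50, 12.85 and 12.98 in wild-type cells. The groups were apart by 0.066 only, and wild-type replicate 1 was the lowest array. Null minus wild type was 0.31 log2 units (SE 0.12, 95% interval 0.040 to 0.58), or 1.24-fold, and did not pass (limma adjusted p = 0.202). With the block it was 0.40 ± 0.075 (SE) and passed (limma adjusted p = 0.0178). Without wild-type replicate 1 and with no block the change was 0.17.

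Clec4d (1420804_S_AT) encodes MCL, a partner of Mincle. Its log2 values were 12.87, 12.84 and 13.17 in null cells, against 12.37, 12.66 and 13.01 in wild-type cells. The groups overlapped, because wild-type replicate 3 lay above null replicates 1 and 2. The change amounted to 0.28 log2 units (SE 0.16, 95% interval −0.094 to 0.66), or 1.22-fold, and did not pass (limma adjusted p = 0.417). With the block it was 0.41 ± 0.093 (SE) and passed (limma adjusted p = 0.0329). With no block the change was 0.13 without wild-type replicate 1 and 0.45 without wild-type replicate 3. Its probe set has the suffix _S_AT, used by Affymetrix where the probes can match several transcripts or genes.

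Clec4n, which encodes Dectin-2, a receptor for fungal mannans, was measured by 2 probe sets. The first, 1419627_S_AT, had log2 values of 7.84, 7.53 and 7.67 in null cells, against 7.05, 7.55 and 7.73 in wild-type cells. Its suffix is that of the Clec4d probe set, so its probes too can match several transcripts or genes. The other, 1425951_A_AT, had 6.72, 6.67 and 7.19 in null cells, against 5.86, 6.73 and 7.08 in wild-type cells. In both the groups overlapped and wild-type replicate 1 lay below the other 5 arrays. The log2 changes were 0.24 ± 0.19 and 0.31 ± 0.31 (SE), and neither passed (limma adjusted p = 0.576 and 0.684).

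With the block the Clec4n changes were 0.33 ± 0.17 and 0.56 ± 0.17 (SE), and neither passed (limma adjusted p = 0.266 and 0.0737). Without wild-type replicate 1 and with no block they were 0.040 and −0.043, against 0.028 and 0.29 in the block fit without that array. The difference in change between the 2 probe sets was 0.069 log2 units (two-sided exact permutation p = 0.8), which these arrays cannot tell from 0. Here too the test cannot give a p under 0.1.

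**Figure D3:**
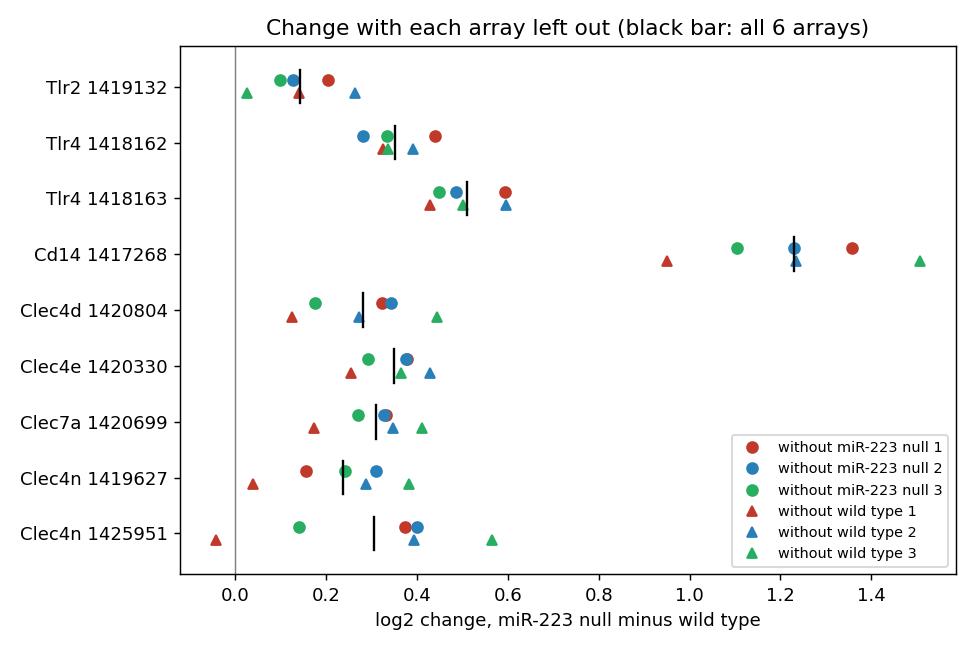
Log2 change, miR-223 null minus wild type (horizontal axis), of each receptor probe set with each array left out in turn; black bars are the changes with all 6 arrays. Leaving out wild-type replicate 1 (red triangles) moves the 5 lectin receptor probe sets, Cd14 and Tlr4 1418163 furthest to the left, and takes Clec4n 1425951 to −0.043.

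The position of the arrays within their group recurred across the receptors. Wild-type replicate 1 was the lowest of the 6 arrays for 8 of the 9 probe sets, and null replicate 3 was the highest null array for 7 of the 9. Wild-type replicate 3 was the highest wild-type array for 4 of the 5 lectin receptor probe sets and for Cd14. The receptors were measured on the same 6 arrays, so their deviations are not independent of each other. How often these arrays hold such ranks over all tested probe sets was not computed.

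Null and wild type were also compared within each technical set, as values with no test. The arrays are those of the fits above, so this is not an independent repeat. Cd14 differed by 1.67 log2 units in the brighter set, where null replicates 1 and 2 stand against wild-type replicate 1 alone, and by 1.20 in the dimmer set, where null replicate 3 alone stands against wild-type replicates 2 and 3. For Tlr4 the 2 probe sets differed by 0.38 and 0.61 among the brighter arrays and by 0.36 and 0.55 among the dimmer, so these were nearly the same in both. Clec4e differed by 0.48 in the brighter and 0.37 in the dimmer set, Clec4d by 0.49 and 0.34, and Clec7a by 0.55 and 0.25. The Clec4n probe set 1419627 differed by 0.64 among brighter arrays and 0.028 among dimmer ones, and 1425951 by 0.84 and 0.29. Null means were higher for 9 of 9 probe sets in each set, and the difference was larger in the brighter set for 8 of 9, all but Tlr2, at 0.10 and 0.23. For these same 8, wild-type replicate 1, the only wild-type array of the brighter set, was the lowest array. The matching shares over all tested probe sets were not computed, so neither count can be read as particular to the receptors.

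**Figure D4:**
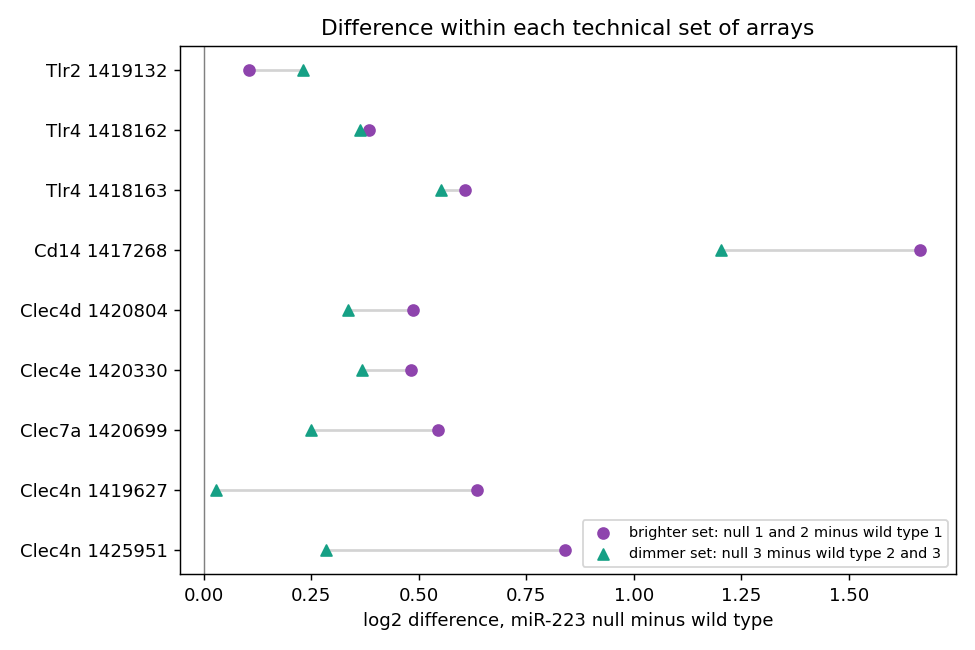
Log2 difference, miR-223 null minus wild type (horizontal axis), of each receptor probe set within the brighter set of arrays (circles) and the dimmer set (triangles). Both Tlr4 probe sets have nearly equal values in the sets, and Clec4n 1419627 is at 0.028 in the dimmer set and 0.64 in the brighter.

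The calls made with the block changed when single arrays were left out. Wild-type replicate 1 alone represents wild type in the brighter set. When it was left out, the block fit called 0 of the 9 receptors, and 0.417% of all tested probe sets higher in null cells, against 5.57% with all arrays. In that fit only null replicate 3 is compared with wild-type replicates 2 and 3. The log2 changes in that fit were 1.20 for Cd14, 0.55 for Tlr4 1418163, 0.37 for Clec4e, 0.34 for Clec4d and 0.25 for Clec7a (limma adjusted p = 0.0804, 0.136, 0.1005, 0.281 and 0.171). Leaving out null replicate 1, 2 or 3 instead left 3 of the 9 called in each case, where 2.35%, 2.19% and 1.28% of all tested probe sets were called higher. Without wild-type replicate 2 the block fit called 5 of the 9 (6.33% of all tested probe sets), and without wild-type replicate 3 it called 6 (5.58%). Over these 6 fits Cd14 and Clec4e passed in 5 each, failing only without wild-type replicate 1, Tlr4 1418163 passed in 4, Clec7a in 3, Clec4d in 2 and Clec4n 1425951 in 1, without wild-type replicate 3. The part of the technical set in the low values of wild-type replicate 1 was not tested.

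For likeness of pattern, the 2 tested probe sets with the highest Pearson correlation over the 6 arrays were found for the brightest probe set of each gene. These correlations ran from 0.976 for Tlr2 to 0.999 for Clec7a. The closest probe set to Clec7a, 1451775_S_AT, had a log2 change of 1.16 (limma adjusted p = 0.193), and the closest to Cd14, 1420196_S_AT at r = 0.997, had 0.63 (limma adjusted p = 0.0400). These 2 had the largest changes of the probe sets found. The others lay between 0.053, for the second closest to Tlr2, and 0.52, for the second closest to Clec4d. These correlations rest on only 6 arrays, and more than 1 probe set reached high values. Of the 22519 tested probe sets, with the 9 receptor probe sets left out, 246 followed Cd14 above a lower cut of 0.95. For Tlr2 the count was 23. The points share the difference between the groups and the technical sets, and the probe sets named carry no gene name in the tables used here.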

How the data were processed

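The authors deposited 1 log2 value per probe set and array; the log2 scale was read from the values themselves, which span 2.12 to 14.98. GCOS is the software named in the submitters' processing notes, and how background, normalization and probe summary were handled is not stated in these sources. Sorted columns of the 6 arrays came within 0.0890 of each other at every rank, so no scaling was added. The number of arrays limits the precision.

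After removal of 64 control probe sets, a probe set was tested if its 6-array mean reached 4.83, the median of all such means. This left 22519, among them 9 of 9 receptor probe sets. Null minus wild type was estimated in R 4.3.3 by limma 3.58.1 (lmFit, then eBayes with its trend option; two-sided; no covariate), with Benjamini-Hochberg adjustment over all tested probe sets and a threshold of 0.05. Exact permutation tests used scipy 1.17.1, and figures matplotlib 3.10.9. The fit without a block was run on simulated data with planted changes. These were larger than the changes of most receptors, and the simulated arrays held no technical sets. The simulation therefore does not bear on the block fit or on changes as small as most of those given here. No label separates animals, so p-values reflect only the spread among these samples, which may be technical.

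Members and lists were chosen with earlier results of these data known. The rule for named items takes every member, pathway genes past the threshold and the 2 probe sets most like each gene, of which 2 are named here. The lists of other pathway genes and of cell type markers were not analysed here, because no table at hand pairs those probe sets with genes. Replicate numbers 1 to 3 recur in both groups, and no label says whether they pair the arrays. Deviations of same-numbered arrays correlated at 0.211, −0.124 and 0.371. The arrays of replicates 1 and 3 shared a technical set, and those of replicate 2 did not. Pairing and technical set cannot be told apart here. The numbers were not used as pairs, except as a block in an alternative fit. Alternatives were other filters, variance settings, scalings, blocks, array weights and omission of each array; omission within the block fit was chosen after seeing the data.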

Additional observations from a re-analysis of the deposited data

How the results depend on the processing

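The count of receptor probe sets past the threshold was 0 of 9 without a block, and remained 0 with no filter, without the variance trend, with robust shrinkage and with quantile normalization. Over all tested probe sets these 4 settings called 700 of 45037, 607, 856 and 881 of 22519. The receptor count was 1 with median centring and 1 with array weights (Cd14), where 831 and 1238 of all 22519 passed. It was 2 of the 8 tested with the stricter filter (Cd14 and Tlr4 1418163), where 791 of all 11260 passed. Adding the technical set as a block gave 5 receptor probe sets. Leaving out 1 array gave 0 to 1 (Cd14, without wild-type replicate 3), and leaving out 1 array from the fit with the technical set as a block gave 0 to 6. No fit called a receptor lower in null cells. With the replicate number as a block 2 passed (Cd14 and Tlr4 1418163), though no label says whether equal numbers pair the samples. In that fit 857 of all 22519 tested probe sets passed. Over all tested probe sets the count was 864, 2466 with the technical set as a block, 85 to 592 with 1 array left out, and 123 to 2909 with 1 array left out of the block fit. The change of Clec4n 1425951 reversed to −0.043 without wild-type replicate 1, was 0.57 without wild-type replicate 3, and reached 0.84 in the block fit without null replicate 3. The difference in change between the Clec4n probe sets ran from −0.10 to 0.22 with 1 array left out, at −0.10 without null replicate 3 and −0.082 without wild-type replicate 1, and that between the Tlr4 probe sets from 0.10 to 0.20. The cause of these shifts was not tested. Pathway list counts were not run.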
